A study of Homo sapiens with 6 samples.

Results

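Metallothioneins are small cysteine-rich proteins that hold zinc and copper, and this report follows their transcripts together with the zinc exporter SLC30A1 and the metal-sensing transcription factor MTF1. The members were chosen by name: MT2A, MT1E, MT1F, MT1G, MT1M, MT1X, SLC30A1 and MTF1, each matched to the Ensembl identifier that GENCODE 29 gives for its symbol. Of these 8 genes, 5 were matched to a row among the 25969 genes measured, and MT1F, MT1G and MT1M were not analysed here. The study measured gene expression by RNA sequencing in cells that received a vector for VIM-AS1, a noncoding transcript from the strand opposite vimentin (3 libraries), and in cells with pcDNA3.1, an expression plasmid that served as the control (3 libraries). Both groups are labelled LNCaP, a prostate cancer line grown from a lymph node metastasis, and the control genotype is labelled WT. The labels do not say when the cells were collected or whether each library had its own culture. The p-values therefore reflect library-to-library spread alone, which may be technical.

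The libraries held 14762893 to 19889745 recovered reads, and expression is given in the deposited normalized read counts, which are reads divided by 1 factor per library. VIM-AS1 itself stood at 2197, 2019 and 2763 in replicates 1 to 3 of the overexpression group and at 8.63, 1.22 and 5.53 in the controls, so the libraries matched their labels. Markers of the labelled line did not all match it. The prostate-specific antigen gene KLK3 was at 0 in 5 libraries and at 1.92 in the remaining one, control replicate 1, and the prostate membrane antigen gene FOLH1 was between 0 and 3.84, where 0 allows up to 2.37 to 3.67 depending on the library. The luminal factor HOXB13 (401.2 to 807.3) and the keratin KRT8 (51008 to 99727) were present, while KLK2 and TMPRSS2 were not analysed here. In both groups the third library differed from the rest: over 13168 genes averaging 20 or more, the difference of the third libraries from the first and second fell with GC content (Spearman rho -0.83 across genes, which are not independent replicates). The share of reads from mitochondrial DNA was 5.57% to 7.06% in the overexpression libraries and 8.73% to 14.3% in the controls. Summed markers of other cell types, which were not tested as sums, did not overlap between the groups in 2 lists. The 5 fibroblast genes, led by COL1A1, summed to 974.2 to 1426 against 1660 to 1863 in the controls, and 3 basal epithelial genes to 4.90 to 17.9 against 24.9 to 40.3. The sums of 3 endothelial genes overlapped narrowly, at 64.5 to 108.8 against 33.2 to 64.7. CD14, the 1 immune marker of 3 with a row, also overlapped, at 5.27 to 15.3 against 14.2 to 40.3. It did not pass the test named next (limma adjusted p = 0.10). Single markers of these lists passed the test in limma with a term that takes up the difference of the third libraries. The fibroblast proteoglycan gene DCN was at 90.6 to 118.7 with VIM-AS1 and at 207.7 to 342.0 without it (-1.30 on the log2 scale, limma adjusted p = 1.55e-05), and COL1A1 at 846.3 to 1330 against 1426 to 1651 (-0.46, limma adjusted p = 0.00729). The basal factor TP63 was at 2.94 to 12.3 against 17.3 to 38.7 (-1.79, limma adjusted p = 0.00681), and the endothelial VWF at 53.2 to 97.0 against 22.1 to 48.9 (1.1, limma adjusted p = 0.00436). Of the same lists, COL1A2 and LUM did not exceed 2.05, the basal keratin KRT5 did not exceed 4.21, and the endothelial PECAM1 was at 0 except for 5.53 in control replicate 3. The part of the mitochondrial share and of these markers in the results below was not tested.

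In many cell types free zinc binds MTF1, which then enters the nucleus and switches on metallothionein genes and SLC30A1 through short promoter sequences called metal response elements. Metallothioneins buffer the metal inside the cell, and SLC30A1 pumps zinc out across the plasma membrane. Metallothioneins are also induced by cadmium, copper, oxidants and glucocorticoids. Normal prostate epithelium is known for its high zinc content, which is lost in much of prostate cancer.

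The promoter sequences are shown because metal response elements are the sequences through which MTF1 acts on its target genes. RefSeq sequences on GRCh38.p14 were matched for 4 of the 8 genes, MT2A, MT1X, SLC30A1 and MTF1, and the 250 bases before each RefSeq start were searched on both strands for the element's core, TGCACNC or TGCGCNC. Capitals below mark matches to the core. In MT1X the window held 4 cores, and the 204 bases printed here are those before its first GENCODE 29 exon.
MT1X, chr16:56682220-56682423, plus strand: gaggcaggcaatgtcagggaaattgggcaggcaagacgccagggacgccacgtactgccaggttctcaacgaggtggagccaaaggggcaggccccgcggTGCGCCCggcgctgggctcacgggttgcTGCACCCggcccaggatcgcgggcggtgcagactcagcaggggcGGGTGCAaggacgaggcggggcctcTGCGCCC
SLC30A1, chr1:211579162-211579411, minus strand: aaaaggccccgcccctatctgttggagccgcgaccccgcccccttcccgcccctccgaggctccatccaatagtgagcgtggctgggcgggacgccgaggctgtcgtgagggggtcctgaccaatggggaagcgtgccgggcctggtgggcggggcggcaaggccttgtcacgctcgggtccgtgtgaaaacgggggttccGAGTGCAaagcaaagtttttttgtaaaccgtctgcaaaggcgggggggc
SLC30A1 held a single core, on the opposite strand, 49 bases before its start. MT2A held 7 cores between 246 and 8 bases before its start. A longer MT2A transcript in GENCODE 29 covers this window, so each core is given with at most 5 bases on either side, read on the strand of the match and named by the position of its first plus-strand base relative to the RefSeq start.
MT2A at -246: ccgcTGCACCCagccc
MT2A at -168: ggctcTGCACACgggcc
MT2A at -153: ccgggTGCGCCCggccc
MT2A at -139: cccagTGCGCGCggccg
MT2A at -88: ctgccTGCACACgcccc
MT2A at -54: gctttTGCACTCgtccc
MT2A at -8: cgcgcTGCACTCcacca
At least 1 core was present in 24.8% of the 35116 RefSeq windows of this length, at least 2 in 6.48% and at least 4 in 0.370%. The MTF1 window held none of these letters, and the MT2A window also held a single AP-1 sequence, TGACTCA, which 4.20% of windows hold. These matches are descriptions of letters and not of bound sites.

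Expression was compared with limma on log2(value + 1) for 20927 genes averaging 1 or more, in 2 fits: without any batch term, and with a term for the third library of each group. The labels name no batch, and the term was chosen with earlier results of these data known. Without the term limma called 5 genes, or 0.0239% of those tested (0.0143% higher and 0.00956% lower), at an adjusted p under 0.05 (Benjamini-Hochberg over all tested genes, two-sided). With the term it called 4065, or 19.4%, of which 2403 (11.5%) were higher and 1662 (7.94%) lower. In what follows "rose" and "fell" stand for calls with the term only, SE values and 95% confidence intervals come from that fit, and both may be too small because the shift of the third libraries was picked from the same data. All 5 measured members passed the filter. None of the 5 was called without the term, where MT1E and MTF1 had unadjusted p-values of 0.00678 and 0.0181. With the term MT1E, MTF1 and SLC30A1 rose, and MT2A and MT1X were not called. A count of 3 higher genes among 5 stood beside the 11.5% of all tested genes called higher. The median log2 fold change of the 5 members was 0.49, against -0.02 over all tested genes. The members were also chosen with earlier results of these data known, so the count and the median may in part reflect that choice.

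**Figure D1:**
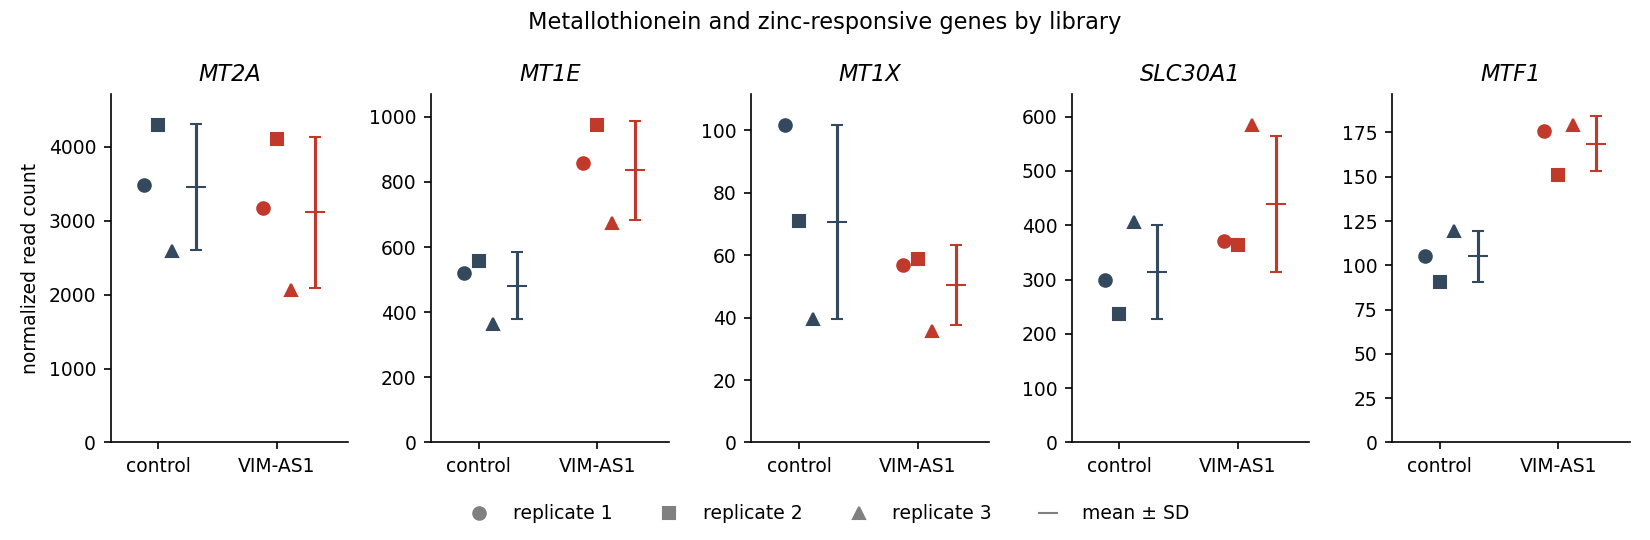
Normalized read counts (y axis, from 0) of the 5 measured members in the 3 control and 3 VIM-AS1 libraries, with symbols for the replicate number and a bar for the mean ± SD. The groups did not overlap for MT1E and MTF1, and overlapped for MT2A, MT1X and SLC30A1.

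MT1E, one of the metallothionein 1 genes clustered on chromosome 16 (ENSG00000169715, chr16:56625475-56627112, plus strand, GRCh38), rose. Its values were 857.6, 973.9 and 674.4 in the VIM-AS1 libraries and 519.9, 558.3 and 364.9 in the controls. Every VIM-AS1 library was above every control, and in both groups the third library was the lowest. The means were 835.3 ± 151.0 and 481.0 ± 102.4 (SD, n = 3), a log2 fold change of 0.80 ± 0.11 (SE; limma with the term, adjusted p = 5.87e-05), and the fit without the term gave an adjusted p of 0.19. Same-numbered libraries differed by 0.72, 0.80 and 0.88 on the log2 scale. When the replicate number was used as a block in limma, the adjusted p was 3.12e-07. That fit called 5571 of the 20927 tested genes, and the labels name no pairing of the libraries.

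MT2A, the most abundant of the measured metallothioneins (ENSG00000125148, chr16:56608199-56609497, plus strand), was not called in either fit. It stood at 3168, 4111 and 2061 in the VIM-AS1 libraries and at 3481, 4294 and 2593 in the controls. The groups overlapped, and the third library was again the lowest in both. The log2 fold change was -0.18 ± 0.12, with a 95% confidence interval from -0.43 to 0.07 (limma with the term, adjusted p = 0.34). The interval of MT2A does not reach that of MT1E, which ran from 0.57 to 1.03.

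MT1X (ENSG00000187193, chr16:56682424-56684196, plus strand) was sparse, with 35 to 106 recovered reads. Its values were 56.9, 58.8 and 35.8 with VIM-AS1 and 101.7, 70.9 and 39.5 in the controls. Control replicate 1 was the highest of all, and the groups overlapped. The log2 fold change was -0.41 ± 0.24 (limma with the term, 95% confidence interval -0.92 to 0.10, adjusted p = 0.27), with -0.55 in replicates 1 and 2 together and -0.14 in replicate 3. In GENCODE 29, 18.1% of MT1X exon bases are shared with AC026461.1 on the same strand. Of the 150-base windows of the MT1X coding transcript, 44.5% occur in AC026461.1, so MT1X reads may have been counted in part only. AC026461.1 had no row among the genes measured, so whether it took part in the counting cannot be seen. For MT1E and MT2A no 100-base window was shared with another gene's transcript, while 10.6% and 4.88% of 50-base windows were. The read length and the treatment of reads that match several genes are not stated in the labels or processing notes.

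There were more MT1E reads per MT2A read in each VIM-AS1 library than in any control, although with 3 libraries a group no ratio passed its test. Ratios of reads within a library do not depend on its scaling factor. The longest annotated transcripts of MT1E and MT2A have nearly the same GC content, at 53.5% and 53.9%. The shifts of MT1E and MT2A in replicate 3 were not always equal. With VIM-AS1, replicate 3 differed from replicates 1 and 2 by -0.44 for MT1E and -0.81 for MT2A on the log2 scale. In the controls these differences were -0.56 and -0.58. The part of the replicate 3 shift in the ratios was not tested. There were 0.271, 0.237 and 0.327 MT1E reads per MT2A read in the VIM-AS1 libraries and 0.149, 0.130 and 0.141 in the controls. The log2 ratio differed by 0.98, against SDs of 0.23 and 0.10 within the groups (two-sided exact permutation p = 0.1, and 0.15 adjusted over 3 ratios). With 3 libraries against 3 no smaller p can be reached. MT1E to MT1X ranged from 15.1 to 18.8 in the VIM-AS1 libraries and from 5.11 to 9.24 in the controls, also without overlap (exact permutation p = 0.1). The MT1X to MT2A ratio overlapped between the groups, at 0.0143 to 0.0180 against 0.0152 to 0.0292 (exact permutation p = 0.70). These ratios were chosen after the values were seen. MT1E therefore made up 18.9% to 24.3% of the reads of the 3 metallothioneins with VIM-AS1 and 11.3% to 12.7% in the controls. The 3 genes together stood at 183.4 to 264.0 CPM in the VIM-AS1 libraries and at 211.2 to 252.2 in the controls, which overlapped.

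**Figure D2:**
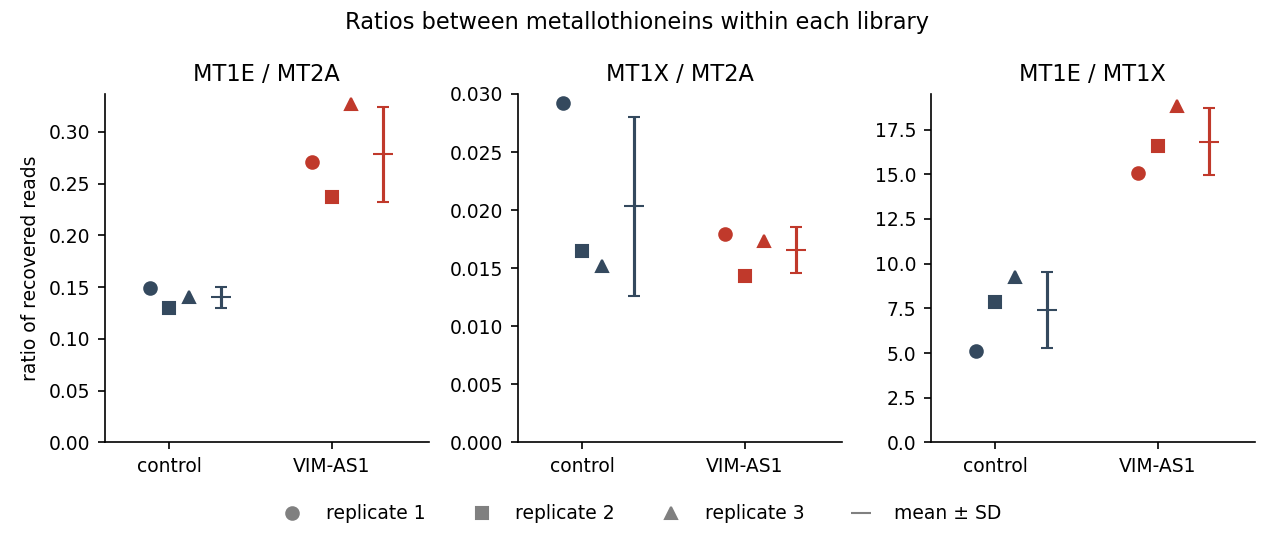
Ratio of recovered reads (y axis, from 0) between pairs of metallothioneins within each library, by group, with symbols for the replicate number and the mean ± SD. The MT1E to MT2A ratio was 0.237 to 0.327 in the VIM-AS1 libraries and 0.130 to 0.149 in the controls.

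MTF1, the zinc finger factor that senses metal (ENSG00000188786, chr1:37809567-37859620, minus strand), rose. It stood at 175.9, 150.9 and 179.1 in the VIM-AS1 libraries and at 105.5, 90.4 and 119.3 in the controls. All VIM-AS1 libraries were above all controls, and the third library was the highest in each group. The means were 168.6 ± 15.5 and 105.1 ± 14.4 (SD, n = 3), a log2 fold change of 0.68 ± 0.17 (limma with the term, adjusted p = 0.00681, and 0.27 without it). The replicate block gave an adjusted p of 0.00106 in limma. MTF1 and MT1E were the 2 members whose groups did not overlap, a pattern found in 9.5% of all tested genes with VIM-AS1 higher, in 10.3% with VIM-AS1 lower and in 19.8% in all.

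SLC30A1, the zinc exporter of the plasma membrane and an MTF1 target (ENSG00000170385, chr1:211571568-211578742, minus strand), rose, although its groups overlapped. Its values were 371.9, 363.5 and 584.3 with VIM-AS1 and 299.3, 235.8 and 406.8 in the controls. Control replicate 3 was above the first and second VIM-AS1 libraries, and the third library was the highest in both groups. The log2 fold change was 0.49 ± 0.13 (limma with the term, adjusted p = 0.0102, and 0.48 without it), with 0.47 in replicates 1 and 2 together and 0.52 in replicate 3. The replicate block gave an adjusted p of 0.000943 in limma.

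The calls, more than the sizes, depended on which libraries were used. With the term, limma called none of the 3 genes when VIM-AS1 replicate 3 or control replicate 3 was left out. The adjusted p was 0.05003 and 0.0518 for MT1E, 0.11 both times for MTF1, and 0.18 and 0.17 for SLC30A1. The log2 fold changes were then 0.76, 0.73 and 0.47, against 0.80, 0.68 and 0.49 with all libraries. In both settings the term takes up the remaining replicate 3, which leaves replicates 1 and 2 for the comparison. Leaving out replicate 3 of both groups makes the same comparison. There limma without a term called MT1E (adjusted p = 0.0452) but neither MTF1 (0.11) nor SLC30A1 (0.17). These settings are thus not separate evidence, and MT1E lay close to the threshold in each of them. Without VIM-AS1 replicate 1 the calls of MTF1 (adjusted p = 0.0605) and SLC30A1 (0.0563) were also lost in limma, and SLC30A1 was lost without control replicate 2 (0.0510) and with library size scaling (0.0798).

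**Figure D3:**
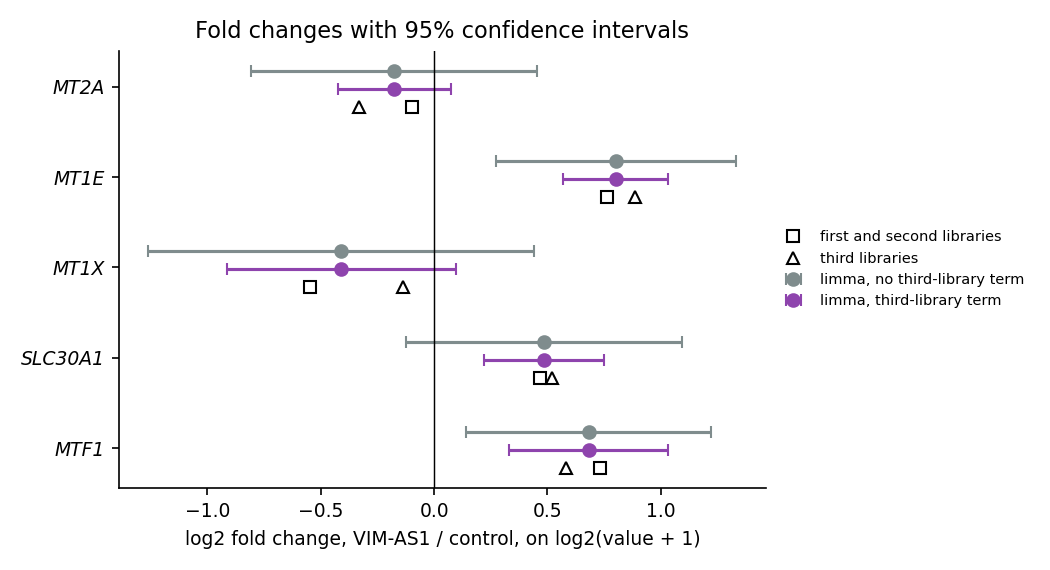
Log2 fold changes (x axis) of the 5 members with 95% confidence intervals from limma without and with the third-library term, and open symbols for the first and second libraries and for the third libraries alone. With the term the intervals of MT1E, SLC30A1 and MTF1 lie above 0, and those of MT2A (-0.43 to 0.07) and MT1X (-0.92 to 0.10) include 0.

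The direction of the third-library shift went with GC content in the members, but its size differed between members of nearly equal GC content. GC content here, and in the correction below, is that of the longest annotated transcript. For MT1X that transcript has 1727 bases against 538 in its coding transcript, and for MT2A 903 against 786. The GC content of the RNA sequenced may therefore differ from the values given. The metallothioneins, at 53.5% to 53.9% GC, were lower in the third library than in the first and second, by log2 differences of -0.81 and -0.58 for MT2A, -0.44 and -0.56 for MT1E and -0.68 and -1.08 for MT1X, in the VIM-AS1 and control libraries respectively. Genes in the GC bin around 53.75% had a median of -0.36 and a 10th percentile of -0.66. MT2A with VIM-AS1 and MT1X in both groups lay below that percentile. SLC30A1, at 38.0% GC, was higher in the third library by 0.67 and 0.61, and MTF1, at 46.7% GC, by 0.14 and 0.29. Removing each library's trends with GC content and transcript length left MT1E at a log2 fold change of 0.92, and it was then called also without the term (limma, adjusted p = 0.00184). After the same correction MTF1 stood at 0.51 and SLC30A1 at 0.44, with adjusted p = 0.0319 and 0.00928 in limma with the term.

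**Figure D4:**
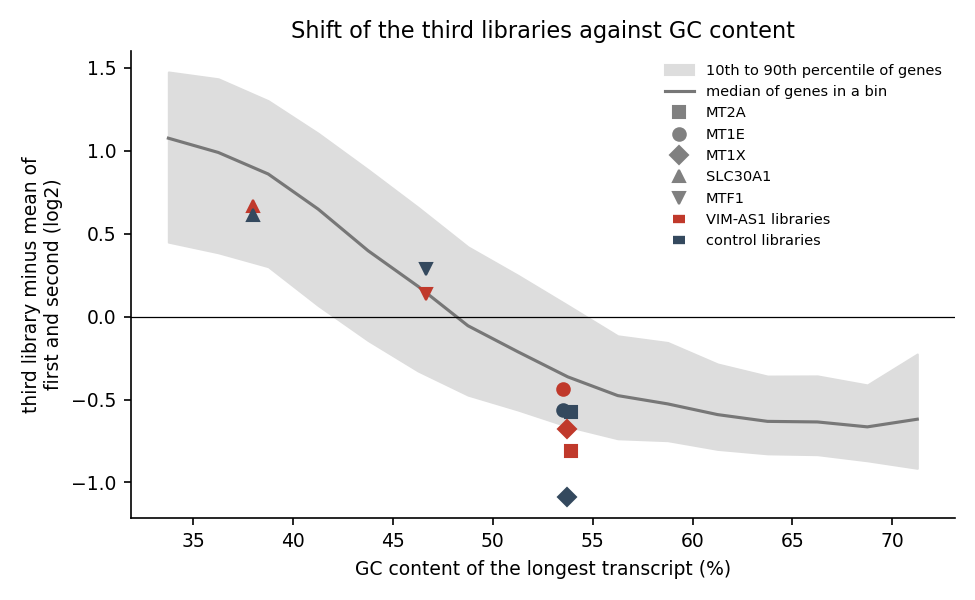
Difference of the third library from the mean of the first and second (y axis, log2) against GC content of the longest transcript (x axis), with the median and the 10th to 90th percentile of genes in bins, and each member once per group. The 3 metallothioneins lie below 0 near 54% GC and SLC30A1 lies above 0 at 38.0%.

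Per kilobase of merged exons, the order of the levels in the controls was MT2A (2661 ± 655.0 normalized reads per kilobase, SD, n = 3), MT1E (457.3 ± 97.3), SLC30A1 (57.4 ± 15.8), MT1X (39.9 ± 17.5) and MTF1 (13.1 ± 1.80). SLC30A1 and MT1X overlapped in that order, at 43.1 to 74.3 and 22.3 to 57.3. With VIM-AS1 the order was the same, at 2397 ± 790.0 for MT2A, 794.0 ± 143.5 for MT1E, 80.4 ± 22.9 for SLC30A1, 28.5 ± 7.19 for MT1X and 21.0 ± 1.93 for MTF1. There MT1X (20.2 to 33.2) and MTF1 (18.8 to 22.3) overlapped. Merged exons include retained introns in the annotation, which lowers the per-kilobase values of the short metallothionein genes. For MT1X they span 1773 bases against 538 in its coding transcript, while SLC30A1 has 5474 by either measure. On the coding length the mean of MT1X would lie above that of SLC30A1 in both groups. The order of these 2 genes thus depends on the length used.

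The other metallothionein loci gave few reads. Of 13 further metallothionein genes and pseudogenes listed, 5 had a row and 4 were tested, and none of the 4 was called. The highest per kilobase was the processed pseudogene MT2P1, at 14.7, 2.94 and 4.09 with VIM-AS1 and 13.4, 0 and 1.58 in the controls. These values stand for 0 to 14 reads per library. MT2P1 also shares 2.71% of the 50-base windows of the MT2A coding transcript.

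Zinc importers, the SLC39A family that brings zinc into the cytosol, went both ways. Of 14 listed, 13 had a row and 12 were tested: 4 rose, 2 fell and 6 were not called, with a median log2 fold change of 0.28. Among all tested genes 11.5% were called higher and 7.94% lower, and 19.8% had groups without overlap. SLC39A11 rose, from 75.8, 89.2 and 82.9 in the controls to 132.7, 151.9 and 137.1 (log2 fold change 0.76 ± 0.18, limma with the term, adjusted p = 0.00526), with no overlap. SLC39A14, a carrier of zinc, manganese and iron, rose by 0.46 ± 0.10 (adjusted p = 0.00423 in limma with the term). It stood at 1676, 1877 and 2217 against 1376, 1393 and 1406, again without overlap. SLC39A6 rose by 0.50 ± 0.17 with overlapping groups (limma with the term, adjusted p = 0.0375). Its call was lost with library size scaling (0.16), with DESeq2 (0.0731), with the GC and length trends removed (0.0504), and without any 1 of VIM-AS1 replicates 1 to 3 or control replicates 2 and 3 (0.0753 to 0.32). The endoplasmic reticulum carrier SLC39A7, the most abundant importer per kilobase, rose by 0.42 ± 0.11 (4622, 4470 and 3417 against 3936, 3355 and 2230). SLC39A13, which moves zinc out of intracellular vesicles, fell from 2482, 2770 and 1900 to 1626, 1913 and 1174 (log2 fold change -0.61 ± 0.10, limma with the term, adjusted p = 0.000393), with overlapping groups. SLC39A10, an importer that MTF1 is reported to repress, fell by 0.38 on the log2 scale (adjusted p = 0.0294 in limma with the term). Replicate 3, at 712.2 with VIM-AS1 and 901.2 in the controls, was far above the others, which stood between 251.8 and 370.3. The SLC39A10 call was also lost without any 1 of VIM-AS1 replicates 1 and 2 and control replicate 1 (limma, adjusted p 0.0516 to 0.16), and that of SLC39A7 with library size scaling (0.0502). None of the importers was called without VIM-AS1 replicate 3 or without control replicate 3.

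None of the other zinc exporters was called. Of 9 listed, 8 had a row and 7 were tested, with a median log2 fold change of 0.13. The called share of all tested genes was 19.4%. SLC30A5, an exporter of the secretory pathway and the highest of them per kilobase, stood at 456.2, 437.9 and 593.5 with VIM-AS1 and at 467.1, 334.7 and 454.9 in the controls (0.25 ± 0.13, limma with the term, adjusted p = 0.22). Without control replicate 1 it was called, at 0.40 and an adjusted p of 0.0153 in limma with the term. Whether SLC30A1 differs from the other exporters in its change was not tested.

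Genes reported elsewhere as MTF1 targets moved in both directions. Of 8 listed, 7 were tested: 3 rose, 1 fell and 3 were not called, with a median of 0.29. These counts stand beside 11.5% called higher and 7.94% lower among all tested genes, and 19.8% without overlap. CSRP1, which encodes a LIM domain protein of the actin cytoskeleton, rose from 4604, 5377 and 2906 in the controls to 12481, 13180 and 8241 (log2 fold change 1.41 ± 0.11, limma with the term, adjusted p = 1.46e-07). It did not overlap between the groups. The glutathione synthesis gene GCLC rose by 0.51 ± 0.16 and the mitochondrial thioredoxin reductase gene TXNRD2 by 0.34 ± 0.10, both with overlapping groups (limma with the term, adjusted p = 0.0317 and 0.0245). The GCLC call was lost with library size scaling (0.14), with DESeq2 (0.0626), with the GC and length trends removed (0.0712), and without any 1 of VIM-AS1 replicates 1 to 3 or control replicates 2 and 3 (0.0540 to 0.24). The TXNRD2 call was lost with library size scaling (0.0584) and without VIM-AS1 replicate 2 (0.18) or control replicate 2 (0.0720). PGF, a growth factor of the VEGF family, fell from 151.6, 108.7 and 69.5 to 67.4, 72.5 and 36.8 (-0.88 ± 0.21, limma with the term, adjusted p = 0.00581), and its groups overlapped. Without VIM-AS1 replicate 3, or without control replicate 3, 1 of the 7 genes was called.

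Among 11 genes induced by cadmium or oxidants, all tested, 5 rose, 1 fell and 5 were not called, with a median of 0.07. Over all tested genes the shares were 11.5% higher and 7.94% lower. SRXN1, which repairs oxidized peroxiredoxins, stood at 94.8, 115.6 and 103.4 with VIM-AS1 against 97.8, 42.8 and 23.7 and rose by 1.15 ± 0.30 (limma with the term, adjusted p = 0.0108). Its control replicate 1 was as high as the VIM-AS1 libraries, and the log2 difference was 0.68 in replicates 1 and 2 together and 2.08 in replicate 3. The SRXN1 call was lost with library size scaling (0.0723) and without control replicate 2 (0.11). FOSL1, an AP-1 subunit, rose by 0.75 ± 0.13, and the cytosolic thioredoxin reductase gene TXNRD1 by 0.47 ± 0.11. HMOX1, the heme oxygenase that cadmium strongly induces, fell from 592.8, 628.0 and 342.0 to 452.0, 465.4 and 269.1 (-0.39 ± 0.11, limma with the term, adjusted p = 0.0208). The HMOX1 call was lost without VIM-AS1 replicate 1 (0.0902), VIM-AS1 replicate 2 (0.0836) or control replicate 2 (0.0596). The cadmium-induced chaperone HSPA1A, named after its value was seen, was not called (-0.22 ± 0.10). HSPA1A and HSPA1B are near-identical copies whose reads may be divided between them. Without VIM-AS1 replicate 3, or without control replicate 3, none of the 11 genes was called.

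**Figure D5:**
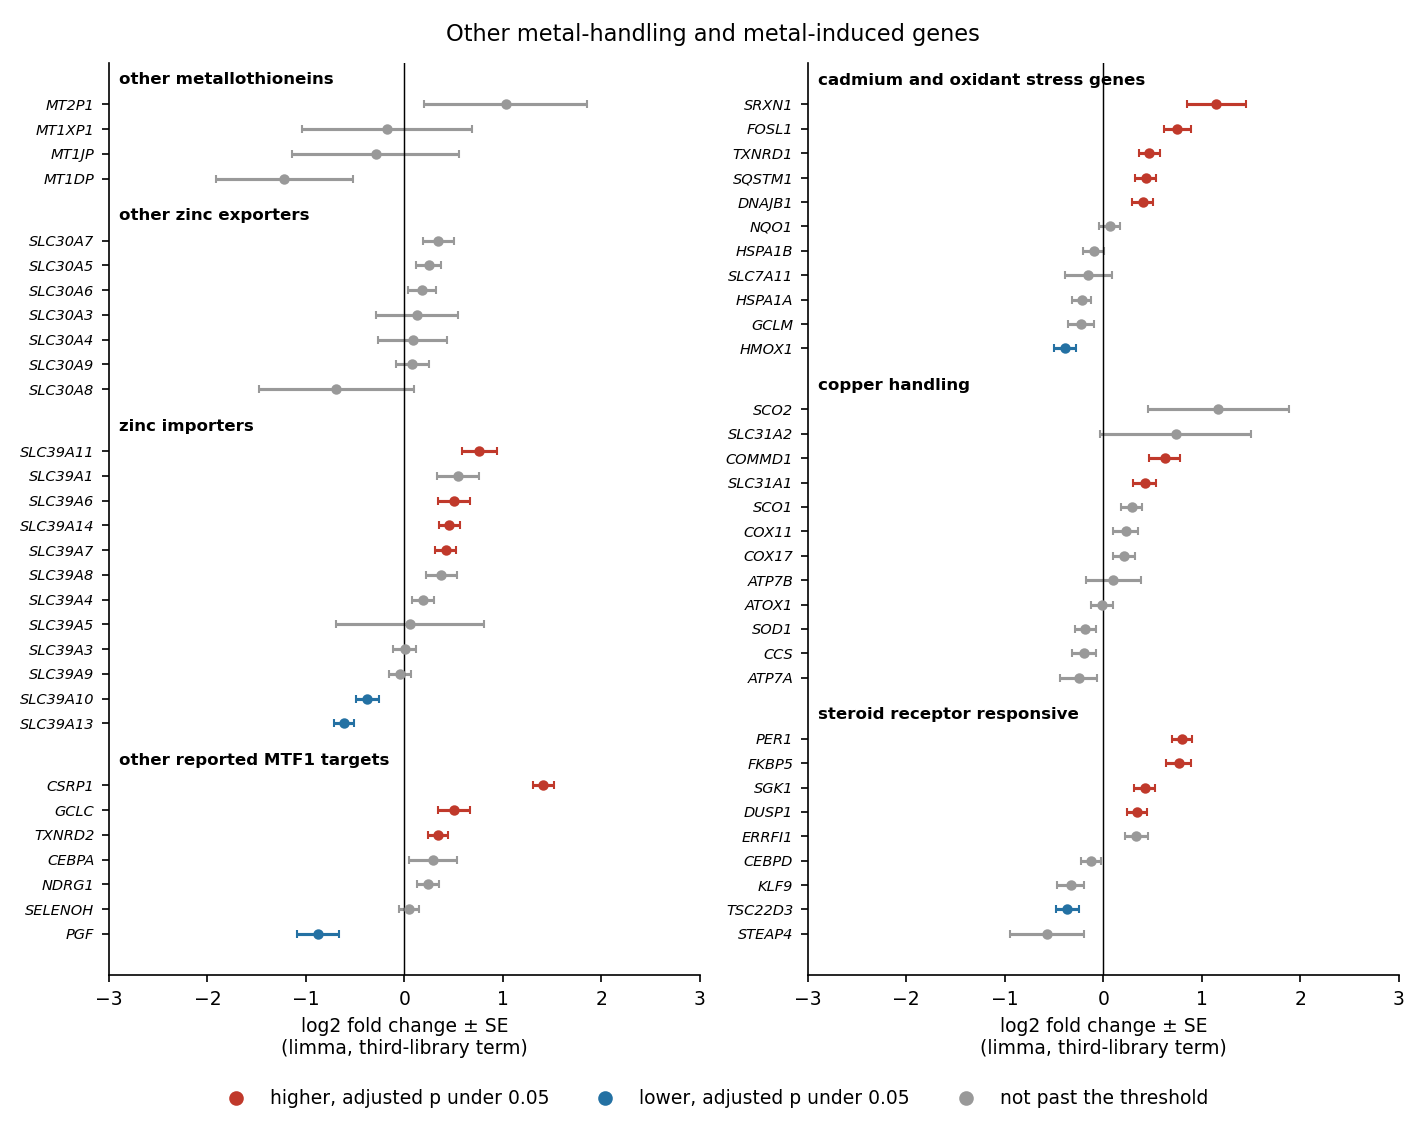
Log2 fold change ± SE (x axis, limma with the third-library term) of the tested genes of 7 metal-handling and metal-induced lists, coloured by whether the adjusted p was under 0.05 and by direction. Zinc importers lie on both sides of 0, and the other zinc exporters include no called gene.

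Across the 6 libraries the mean log2 profile of MT2A, MT1E and MT1X was closest to those of MRPL2, MRPL55, HMG20B, RABL6 and GNL1 among 9754 genes with a mean of at least 100. Their Pearson r ran from 0.998 to 0.999 and their Spearman rho from 0.94 to 1, over 6 libraries. None of these genes was called with the term, and their GC contents were 50.6% to 65.7%. In all of these profiles replicate 3 is low in both groups, and with so few points such values are a description only.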

How the data were processed

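Reads were processed with fastp, HISAT2 and featureCounts on hg38, per the submitters' processing notes, without versions. Libraries were made with a NEBNext Ultra kit, per the labels' protocols, and whether counting used strand is not stated there. What the authors deposited is a signal per gene: counts divided by 1 factor per library. Dividing each library by its smallest step gave whole reads for 100% of 25969 genes (tolerance 0.01 read), 14762893 to 19889745 per library. A count of 0 allows up to 3 reads (0.151 to 0.203 CPM), counting error only.

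The fits used limma 3.58.1 under R 4.3.3, with a trend of variance on mean, on log2(value + 1) of genes averaging 1 or more. Fold changes on this scale are too small for genes at low values. Other fits were edgeR (4.0.16) and DESeq2 (1.42.0) on the recovered reads, other scalings, filters and pseudocounts, a GC and length correction (splines with 5 degrees of freedom), a replicate block, and each library left out. Some of these fits were also run on simulated counts. No result of those runs is given here, so they are not evidence that the fits suit these libraries. They do not show how the fits behave where the third-library shift differs between the groups. For MT2A that shift was -0.81 with VIM-AS1 and -0.58 in the controls on the log2 scale. The block fit took the replicate numbers as pairs, although the labels give numbers only and name no pairing. Deviations from the group mean correlated between same-numbered libraries (Pearson r over 13175 genes 0.32, 0.72 and 0.84). The deviations of a gene within a group cancel out. A shift shared by both replicates 3 is therefore enough to give positive values among replicates 1 and 2, whichever way they pair. VIM-AS1 replicate 1 correlated more with control replicate 2 (0.42). Control replicate 1 correlated about as much with VIM-AS1 replicate 2 (0.33). The pairing of replicates 1 and 2 is thus not settled by these values.

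GENCODE 29 (GRCh38, the assembly also called hg38) gave gene positions, lengths and GC content. Named were all members, up to 3 called genes per direction of each list, the most abundant gene per kilobase of 3 families, and the 5 genes with the most similar profile. The members and lists were chosen with earlier results of these data known.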

Additional observations from a re-analysis of the deposited data

How the results depend on the processing

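Without the third-library term 5 genes were called, against 28 with library size scaling, 17 with no filter on low values, 353 with DESeq2 on recovered reads, 2097 with the GC and length trends removed, 5571 with the replicate block (which pairs same-numbered libraries) and 5329 with the replicate block and the GC and length trends removed. Of the members, 0 were called without the term, 1 (MT1E) after the GC and length correction, 3 (MT1E, MTF1 and SLC30A1) with the replicate block and 3 with the block and that correction. edgeR and DESeq2 without the term called none of the members. Leaving out a library gave 1 to 6 called genes without the term, with 0 members each time, and 236 to 4338 with it, with 0 to 3 members: 280 and 236 when replicate 3 of the VIM-AS1 or the control group was left out, and 2666 and 2450 for replicates 1 and 2 of the VIM-AS1 group. Without a replicate 3, the term takes up the other group's replicate 3, which leaves replicates 1 and 2 for the comparison; the cause of the other differences was not tested. Without the term the MT2A log2 fold change ran from -0.41 to 0.093 over the libraries left out, and was positive without VIM-AS1 replicate 3. With the term MT2P1 ran from -0.078 to 2.12, and was negative without control replicate 2. Limited to replicates 1 and 2 and without the term, MT1E was called (0.76, limma adjusted p = 0.0452). Of 20 called list genes named in the text, 18 and 19 lost the call when replicate 3 of the VIM-AS1 or the control group was left out, 9 without VIM-AS1 replicate 2, 6 without control replicate 2, 5 without VIM-AS1 replicate 1, 5 with library size scaling, 3 with the GC and length trends removed and 2 with DESeq2. At 35 to 106 reads, depth limits MT1X.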

Other observations

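Copper is also stored in metallothioneins. Of 12 copper-handling genes tested, 2 rose, none fell and 10 were not called by limma with the third-library term, beside 11.5% higher and 7.94% lower among all tested genes. Their median log2 fold change was 0.22. The copper importer gene SLC31A1 stood at 558.4, 621.2 and 677.4 with VIM-AS1 and at 445.1, 494.8 and 442.3 in the controls, without overlap (0.42 ± 0.12, limma with the term, adjusted p = 0.0147), and its call was lost with the GC and length trends removed (0.0628). COMMD1, which takes part in the trafficking of the copper exporters, rose by 0.62 ± 0.16 (218.1, 258.7 and 191.4 against 139.1, 178.4 and 118.5). The copper exporter genes ATP7A and ATP7B, named after their values were seen, were not called (-0.25 ± 0.19 and 0.10 ± 0.28).

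Genes induced by steroid receptors, which also induce metallothioneins, moved both ways. Of 10 listed 9 were tested: 4 rose, 1 fell and 4 were not called, with a median of 0.34. Over all tested genes the shares were 11.5% higher and 7.94% lower. PER1 rose from 2205, 2660 and 1479 to 4031, 4399 and 2589 (0.80 ± 0.10), FKBP5 from 280.1, 230.9 and 321.5 to 410.9, 407.6 and 616.0 (0.77 ± 0.13), and SGK1 by 0.42 ± 0.10. TSC22D3, the glucocorticoid-induced leucine zipper gene, fell from 1423, 1531 and 1065 to 930.3, 1178 and 987.5 (-0.37 ± 0.12, limma with the term, adjusted p = 0.0328), and its call was lost without any 1 of VIM-AS1 replicates 1 to 3 or control replicates 2 and 3 (0.0618 to 0.25). All of these calls come from the fit with the third-library term, and none of these genes was called without it. The called count was 0 in the copper list without VIM-AS1 replicate 2 and without replicate 3 of either group. In the steroid list it was 1 without VIM-AS1 replicate 3 and 0 without control replicate 3.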
